A study of Homo sapiens with 3 samples.

Results

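The anaphase-promoting complex, or cyclosome (APC/C), is the ubiquitin ligase that ends mitosis. The 10 genes described here, of the complex and its regulators, were taken from the deposited table by symbol, and all 10 were found among its 58735 genes. They are the coactivators CDC20 and FZR1, the ubiquitin-conjugating enzyme UBE2C, the inhibitor FBXO5, the catalytic subunits ANAPC2 and ANAPC11, the scaffold ANAPC1, and the subunits CDC16, CDC23 and CDC27.

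RNA with a poly(A) tail was sequenced from RPE-1, a telomerase-immortalised line of human retinal pigment epithelium. The cells carried Cetn2 tagged with GFP as a centriole marker and PLK4 under an rtTA-dependent promoter that responds to doxycycline. All 3 libraries came from cells transfected with a scramble siRNA and without PLK4 induction, so they form 1 control group and no contrast between conditions was possible. The sources used here give neither the time after transfection nor whether the line is 1 clone. Separate cultures are not stated either, so p-values below cover the spread of these 3 samples, and that spread may be technical.

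The libraries held 46625774 to 60040029 counts, and library 1 differed more from the other libraries than those did from each other. The SD of log2 ratios over detected protein-coding genes was 0.321 between libraries 1 and 2, 0.301 between 1 and 3, and 0.157 between 2 and 3. Library 1 was the highest for 13 of 13 protein-coding genes of the mitochondrial genome and for 9 of 9 immediate early genes, and all 22 passed the test of spread described below. The summed level of the mitochondrial genes was 92120 CPM in library 1 against 51340 and 56880 CPM. Of 11 markers of pigment epithelium 6 were detected (BEST1, PMEL, MITF, OTX2, KRT8 and KRT18). RPE65 had 8, 6 and 0 counts, RLBP1 and LRAT were below detection, and TYR and DCT had none. Of 9 markers of blood, neurons, liver and other epithelia only the leukocyte gene PTPRC was detected, at 2.95, 1.53 and 1.71 CPM. Their summed level was 1.89 to 3.44 CPM, and HBB, CD3E, RBFOX3 and APOA1 had no counts.

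The APC/C attaches ubiquitin chains to cyclins, securin and other proteins and so sends them to the proteasome. CDC20 brings in substrates at the metaphase to anaphase transition and is held back by the spindle checkpoint, whereas FZR1 (CDH1) takes over from late mitosis through G1 and is blocked in S and G2 by FBXO5 (EMI1). UBE2C starts the ubiquitin chain and UBE2S extends it. ANAPC2, a cullin-like protein, and ANAPC11, a RING protein, form the catalytic core, and CDC16, CDC23 and CDC27 are TPR proteins of the arc that receives the coactivators.

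Many G2 and mitosis genes carry in their promoters a CHR element (TTTGAA, or its variant TTTAAA) together with CCAAT boxes bound by NF-Y. RefSeq promoter windows on GRCh38.p14 were at hand for 9 of the 10 members, and UBE2C was not in that table. The 250 bases before each annotated start were searched on both strands for the CHR element, for CCAAT, and for E2F-type sites (the word TTTGGCG, the word TTTCGCG, the word TTTCCCG and the word TTTGCCG). Stretches before a start of CDC20, FBXO5, CDC23, FZR1 and ANAPC2 are shown as examples, chosen after their values were seen. A link between motifs and values was not tested. Each is printed on the strand of the gene, without annotated exons, with motif matches of either strand in capitals. ATTGG is CCAAT and TTCAAA is TTTGAA on the other strand.
CDC20, chr1:43358855-43358954, plus strand: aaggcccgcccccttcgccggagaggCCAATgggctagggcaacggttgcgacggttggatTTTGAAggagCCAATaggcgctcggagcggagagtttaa
FBXO5, chr6:152983042-152983141, minus strand: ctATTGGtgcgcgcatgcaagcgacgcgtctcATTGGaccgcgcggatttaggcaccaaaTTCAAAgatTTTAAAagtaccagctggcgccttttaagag
CDC23, chr5:138213344-138213443, minus strand: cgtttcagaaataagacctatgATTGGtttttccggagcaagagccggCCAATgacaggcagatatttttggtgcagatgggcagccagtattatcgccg
FZR1, chr19:3506173-3506272, plus strand: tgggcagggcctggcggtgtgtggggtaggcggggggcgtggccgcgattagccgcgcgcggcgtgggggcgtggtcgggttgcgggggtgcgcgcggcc
ANAPC2, chr9:137188561-137188646, minus strand: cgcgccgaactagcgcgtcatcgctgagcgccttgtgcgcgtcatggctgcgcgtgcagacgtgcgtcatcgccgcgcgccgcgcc

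In the CDC20 window a TTTGAA lay 65 to 60 bases before the RefSeq start, between CCAAT boxes at 100 to 96 and 55 to 51 bases. The FBXO5 stretch belongs to the more downstream of its 2 annotated starts and held both CHR forms, at 40 to 35 and 31 to 26 bases before that start. The window of the more upstream FBXO5 start held no match to any of the words searched. FZR1 had a TTTGAA farther out, 226 to 221 bases before its first start and outside the stretch shown. Over all windows, 3 of 9 members had a CHR element of either form, against 25.5% of 27305 genes in the table. A CCAAT box was present for 6 of 9 members, against 37.0% of genes, and an E2F-type site for CDC16, CDC23 and FZR1, against 8.86%. A gene counted where any of its windows matched. The 9 members had 14 windows and the 27305 genes 35116, and those genes were not limited to detected ones. The E2F-type word of FZR1 lay 242 to 236 bases before its second annotated start, and that of CDC23 187 to 181 bases before its start. Both lie outside the stretches shown. ANAPC1 and ANAPC2 had no match to these letters in their windows. These are matches of short words and not measured binding sites.

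All 10 members were expressed. A gene counted as detected with at least 1 CPM (the count normalised to depth, on library sizes adjusted by TMM) in each library, which 57.7% of protein-coding genes reached. Per unit of exon length, 9 of 10 members stood above the median of the 11508 detected protein-coding genes. RPKM (CPM per kb of the gene's annotated exons) ran from 82.5 ± 7.28 for UBE2C to 2.68 ± 0.106 for ANAPC1 (SD, n = 3 here and below), a 30.8-fold range. The median of the members was 10.1 RPKM, against 6.09 RPKM for all detected protein-coding genes.

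Ordered by RPKM, the members ran UBE2C, CDC20, CDC16, CDC27, FZR1, FBXO5, ANAPC2, CDC23, ANAPC11 and ANAPC1. Of the 9 pairs of neighbours in this order, 6 did not overlap between libraries. FBXO5 and ANAPC2, ANAPC2 and CDC23, and CDC23 and ANAPC11 did overlap, so these neighbours had no order beyond their spread. FBXO5 (8.82 ± 0.698 RPKM) nevertheless lay above CDC23 and ANAPC11 (7.09 ± 0.756 RPKM) in every library, without overlap. The order also depends on the length used. With the longest coding transcript in place of all exons, ANAPC11 moved from the ninth to the fourth place at 21.0 RPKM, and FZR1 from the fifth to the eighth at 12.7 RPKM.

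Spread between libraries was tested gene by gene. A chi-square test set the 3 counts against those expected from the adjusted library sizes, and p-values were adjusted over the 16293 genes whose mean count reached 10. A gene was called where its adjusted p was under 0.05, which means that its libraries differed by more than counting error. Of the members 8 of 10 were called, against 68.6% of all genes tested. When each gene was allowed a further coefficient of variation of 0.05, CDC20, FZR1 and ANAPC2 were called, 3 of 10 against 32.6%. These shares lay near those of all genes. The members' median ratio of highest to lowest CPM was 1.18, against 1.19 for detected protein-coding genes.

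**Figure D1:**
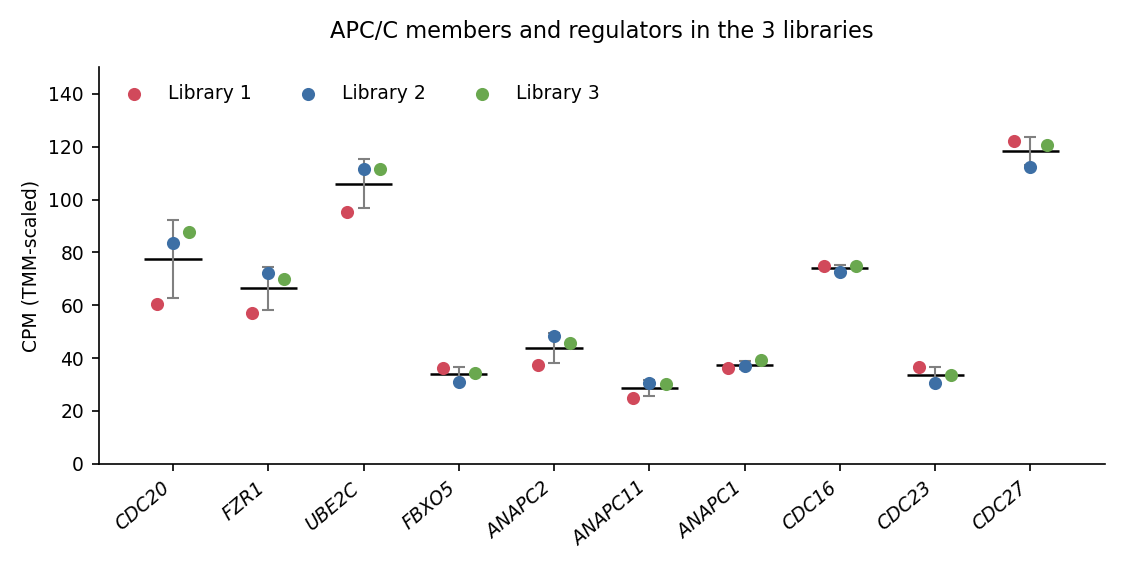
CPM of each member (vertical axis, linear from 0) in libraries 1, 2 and 3 (coloured points), with the mean (black line) and SD (grey bars, n = 3). CDC20, FZR1, UBE2C, ANAPC2 and ANAPC11 had their lowest value in library 1, while the points of CDC16 and ANAPC1 lie close together.

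CDC20 (ENSG00000117399, chromosome 1, 43358955 to 43363203 on hg38) varied most among the members. It stood at 60.4, 83.7 and 87.8 CPM in libraries 1, 2 and 3. Library 1 lay well below the other libraries, which were close to each other. The mean was 77.3 ± 14.8 CPM, or 37.9 ± 7.24 RPKM, and the spread exceeded counting error (chi-square, adjusted p = 3.18e-59, or 3.15e-05 with the allowance of 0.05). The ratio of highest to lowest CPM, 1.45, was at the 88.6 percentile of detected protein-coding genes. Between libraries 2 and 3 alone CDC20 was not called (adjusted p = 0.0683). Of 50-base words in its longest coding transcript 9.03% also occur in another annotated gene, among them the processed pseudogene CDC20P1, which had 15, 18 and 11 counts.

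FZR1 (ENSG00000105325, chromosome 19, 3506273 to 3538330) was also lowest in library 1, at 57.2, 72.2 and 70.0 CPM. Libraries 2 and 3 lay close together above it, with library 2 the highest. Its mean was 66.4 ± 8.11 CPM or 11.5 ± 1.40 RPKM (adjusted p = 1.12e-21, or 0.0198 with the allowance). Its exons overlap those of MFSD12 on the opposite strand over 1.21% of their length.

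Per unit of length CDC20 exceeded FZR1 in every library, 3.01-, 3.30- and 3.57-fold. The log2 ratio was 1.72 ± 0.12, and an exact two-sided sign-flip test gave p = 0.25, the smallest that 3 libraries allow. Without length the difference shrank to 0.21, since FZR1 has more exon sequence. CDC20 stood 2.26-fold above MAD2L1, the checkpoint protein that binds it, with ratios of 1.91, 2.46 and 2.46. That order rests on length, as MAD2L1 had the higher counts (log2 ratio -0.32 without length).

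The 3 detected protein-coding genes outside the members whose deviations over the 3 libraries were nearest to those of CDC20 were TMEM159, ZBED8 and KLF13. They differed from it by 0.002, 0.0036 and 0.0051 in log2 CPM (root mean square), while 212 of 11498 genes lay within 0.05. With 3 libraries and 1 standing apart, this likeness says little about any single gene.

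UBE2C (ENSG00000175063, chromosome 20, 45812576 to 45816957) had the highest level per length. It stood at 95.2, 111 and 112 CPM. Libraries 2 and 3 were almost equal and library 1 was lower. The spread exceeded counting error (adjusted p = 7.99e-18) but not the allowance of 0.05 (adjusted p = 0.127). At 82.5 RPKM it lay at the 96.6 percentile of detected protein-coding genes. UBE2S, which extends the chains that UBE2C begins, stood at 190, 222 and 224 CPM and 76.0 ± 6.82 RPKM, with library 1 again the lowest. The ratio of UBE2C to UBE2S was nearly equal in the 3 libraries, at 1.09, 1.09 and 1.08 (log2 0.12 ± 0.008). Its direction rests on length, since UBE2S had more counts in every library (log2 -0.998 without length).

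FBXO5 (ENSG00000112029, chromosome 6, 152970519 to 152983579) had its high and low libraries the other way round. It stood at 36.1, 30.9 and 34.4 CPM, with library 1 the highest and library 2 the lowest. Its mean was 33.8 ± 2.68 CPM or 8.82 RPKM, and it was called against counting error (adjusted p = 2.005e-05) but not with the allowance (adjusted p = 0.233). Without library 2 it was not called (adjusted p = 0.220). The ratio of FBXO5 to FZR1, the coactivator it inhibits, was 0.957 in library 1 against 0.648 and 0.744 in libraries 2 and 3. FZR1 was thus the higher per unit of exon length in each library, while with the longest coding transcript FBXO5 was (log2 0.26 instead of -0.37). FBXO43 (EMI2), the related inhibitor best known from oocytes, had 205, 277 and 262 counts or 1.21 ± 0.182 RPKM, and FBXO5 exceeded it 8.79-, 6.97- and 6.32-fold.

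**Figure D2:**
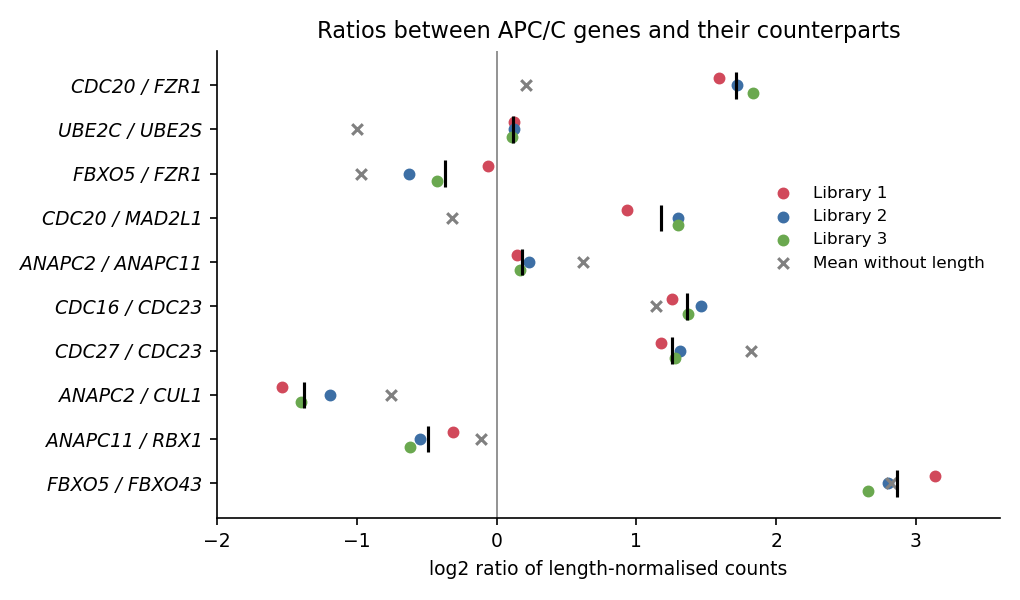
Log2 ratios of length-normalised counts (horizontal axis) for the 10 pairs of genes compared, with 1 point per library, the mean as a black line and the mean without length as a cross. CDC20 lies to the right of 0 against FZR1 in every library, and the crosses for UBE2C against UBE2S and CDC20 against MAD2L1 fall on the other side of 0.

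Both catalytic subunits were lowest in library 1. ANAPC2 (ENSG00000176248, chromosome 9, 137174784 to 137188549) stood at 37.5, 48.4 and 45.7 CPM. Its adjusted p was 3.44e-16, and 0.0157 with the allowance of 0.05. ANAPC11 (ENSG00000141552, chromosome 17, 81890790 to 81900991) stood at 25.0, 30.5 and 30.1 CPM, with an adjusted p of 2.61e-07, and 0.0772 with the allowance. In each gene libraries 2 and 3 lay close together above library 1. The ratio of ANAPC2 to ANAPC11 was 1.11, 1.17 and 1.12 per length, so the 2 genes differed between libraries by nearly the same factor, and neither was called between libraries 2 and 3 alone. Their order reversed with the longest coding transcript (log2 -0.33 instead of 0.18). ANAPC11 shares 6.13% of its exon length with NPB on the same strand, a gene with 61 counts in all libraries together. Of 50-base words in the longest coding transcript of ANAPC11, 15.1% also occur in NPB.

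The SCF ligase, the other main RING ligase of the cell cycle, is built on CUL1 and RBX1, the counterparts of ANAPC2 and ANAPC11. CUL1 stood 2.60-fold above ANAPC2 per unit of length (log2 ratio of ANAPC2 to CUL1 -1.38 ± 0.17), and RBX1 1.41-fold above ANAPC11 (-0.49 ± 0.16), each in 3 of 3 libraries. With the longest coding transcript these log2 ratios were -0.54 and -0.31, and without length -0.76 and -0.11. RBX1 stood at 23.9, 34.2 and 35.6 CPM, again lowest in library 1, and varied most between libraries of all genes on the SCF list. All 11 SCF genes were called, 9 of them lowest and 2 (FBXW7 and UBE2R2) highest in library 1. Of all genes tested 68.6% were called, and 33.4% were called and lowest in library 1. With the allowance of 0.05, 3 of the 11 were called, against 32.6%. Their levels ran from CDC34 (27.98 ± 4.88 RPKM), the ubiquitin-conjugating enzyme of the SCF, to FBXW7 (4.01 ± 0.437), and their median of 11.5 RPKM was close to that of the APC/C members.

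CDC16 (ENSG00000130177, chromosome 13, 114234887 to 114272723), a TPR subunit, stood at 74.7, 72.5 and 74.7 CPM and was not called (adjusted p = 0.348). Its ratio of highest to lowest CPM, 1.03, was at the 2.64 percentile of detected protein-coding genes. CDC27 (ENSG00000004897, chromosome 17, 47117703 to 47189422), which docks the coactivators, had the most counts of all members, at 122, 112 and 121 CPM. Library 2 was its lowest, and it was called (adjusted p = 7.67e-06, or 0.611 with the allowance) but not without library 2 (adjusted p = 0.603). Its 3 annotated processed pseudogenes held 3 counts together.

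CDC23 (ENSG00000094880, chromosome 5, 138187648 to 138213343) stood at 36.5, 30.6 and 33.6 CPM, with library 1 highest and library 2 lowest (adjusted p = 2.37e-06, or 0.169 with the allowance). Its exons overlap KIF20A on the opposite strand over 1.47% of their length, and KIF20A had 335% of the counts of CDC23. The sources used here do not say whether counting used strand. CDC16 exceeded CDC23 2.57-fold per length and CDC27 exceeded it 2.39-fold, each in 3 of 3 libraries, although the 3 proteins are present in equal number in the complex.

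ANAPC1 (ENSG00000153107, chromosome 2, 111611639 to 111884690), the largest subunit, was not called. It stood at 36.2, 37.1 and 39.1 CPM (adjusted p = 0.0839). It was called on total counts without scaling (adjusted p = 0.0269) and without library 2 (adjusted p = 0.0401). Its level of 2.68 RPKM lay at the 27.8 percentile and is uncertain. Of its 50-base words 49.2% also occur in 1 or more of 12 other annotated genes, most of them unprocessed pseudogenes. Those 12 genes held 245 counts, 4.19% of the number for ANAPC1 itself. The sources used here do not say how reads with several alignments were treated.

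With the 8 subunits outside the listed members, all 14 core subunits were detected. Their levels spanned 35.8-fold, from ANAPC13 (19.8 ± 2.09 RPKM), a small subunit that steadies the TPR proteins, to ANAPC10 (0.553 ± 0.0253), which helps to bind the destruction box of substrates. CDC16 and CDC27 followed ANAPC13, and ANAPC4 (2.76 ± 0.169) stood beside ANAPC1 near the bottom. ANAPC10 rests on 115, 157 and 119 counts, and other genes on the same strand cover 24.6% of its exons. With the longest coding transcript the span was 40.5-fold and the top gene was ANAPC5, at 60.4 RPKM instead of 12.3, ahead of CDC16 (33.4) and ANAPC13 (25.4). ANAPC5 also had the highest CPM of the 14, at 151.7. Of the 8 other subunits 7 were called, against 68.6% of all genes tested, 3 lowest in library 1, 3 highest and 1 between the others. With the allowance of 0.05 only ANAPC5 was called (adjusted p = 0.0236), 1 of 8 against 32.6%. CDC26, a chaperone-like partner of CDC16, had the widest ratio among the 7 called, at 11.8, 9.33 and 10.3 CPM (adjusted p = 0.000742, or 0.0937 with the allowance).

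**Figure D3:**
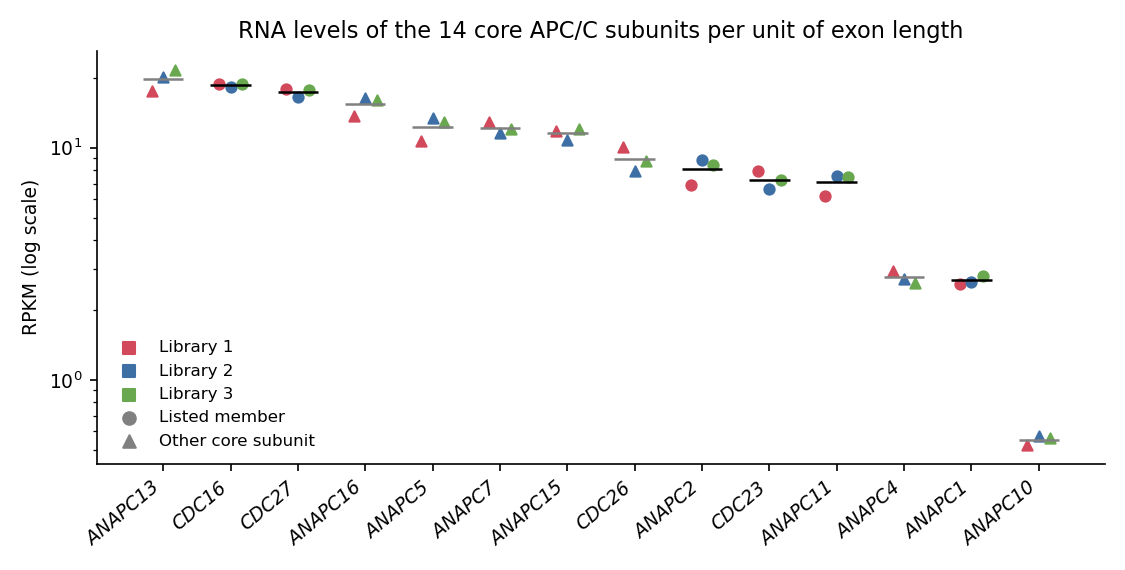
RPKM (vertical axis, log scale) of the 14 core subunits in the 3 libraries (colours), ordered by mean, with circles for listed members, triangles for the other subunits and a line for the mean. Most subunits have means between 7.09 and 19.8 RPKM, and the means of ANAPC4, ANAPC1 and ANAPC10 lie below.

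Of the 8 members called, 5 were lowest in library 1 (CDC20, FZR1, UBE2C, ANAPC2 and ANAPC11) and 3 were highest there (FBXO5, CDC23 and CDC27). Among all genes tested 33.4% were called and lowest in library 1, and 27.9% called and highest. Relative to the mean of libraries 2 and 3, library 1 was lower by 0.50 (log2) for CDC20, with values of -0.31 for FZR1, -0.32 for ANAPC2, -0.28 for ANAPC11 and -0.23 for UBE2C. It was higher by 0.19 for CDC23, 0.15 for FBXO5 and 0.07 for CDC27. The median of the members was -0.15, against -0.04 for all detected protein-coding genes. Between libraries 2 and 3 alone FBXO5, CDC23 and CDC27 were called, 3 of 10 against 28.1% of genes.

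Counts for other genes around the APC/C are read against all genes tested, of which 68.6% were called and 33.4% were called and lowest in library 1. Of the 11508 detected protein-coding genes 77.5% were called, and 4562 were called and lowest in library 1. Of 9 genes for checkpoint inhibitors, the factors that take them apart and EMI2, 8 were called, and all 8 were lowest in library 1. BUB3, a checkpoint protein of the kinetochore, was the highest of them (38.2 ± 3.01 RPKM), and MAD1L1 was the 1 not called (adjusted p = 0.0854). With the allowance of 0.05, 2 of these 9 genes, 10 of the 25 substrates and 2 of the 9 kinases, cyclins and phosphatases were called, against 32.6% of genes. Of 25 known substrates 23 were called, 18 of them lowest in library 1, 2 highest (SGO1 and CENPF) and 3 between. TK1, thymidine kinase, stood at 115, 167 and 154 CPM and had the widest ratio among them. CCNB1, the cyclin whose destruction ends mitosis, stood at 60.4, 82.9 and 84.9 CPM, close to the values of CDC20. The highest substrate was ANLN (84.6 ± 3.35 RPKM) and the lowest SGO1 (6.08 ± 0.778). In bulk RNA, fewer cells in a phase and less RNA per cell cannot be told apart.

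Of 9 kinases, cyclins and phosphatases that switch the coactivators 7 were called, 6 of them lowest in library 1. CCNA2 was the highest (41.1 ± 4.14 RPKM) and the phosphatase CDC14A the lowest (0.565 ± 0.0373), and 2 of the cyclins and the kinase PLK1 also stand in the list of substrates. The other ubiquitin-conjugating enzymes and deubiquitinases had no common direction. Of these 7 genes 6 were tested and 4 were called, or 66.7% of those tested against 68.6% of all genes. Of the 4, 2 were lowest in library 1, 1 highest and 1 between. USP37, which opposes the APC/C, was the lowest detected (1.15 ± 0.0817 RPKM), and USP44, with 0, 2 and 3 counts, was not tested.

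**Figure D4:**
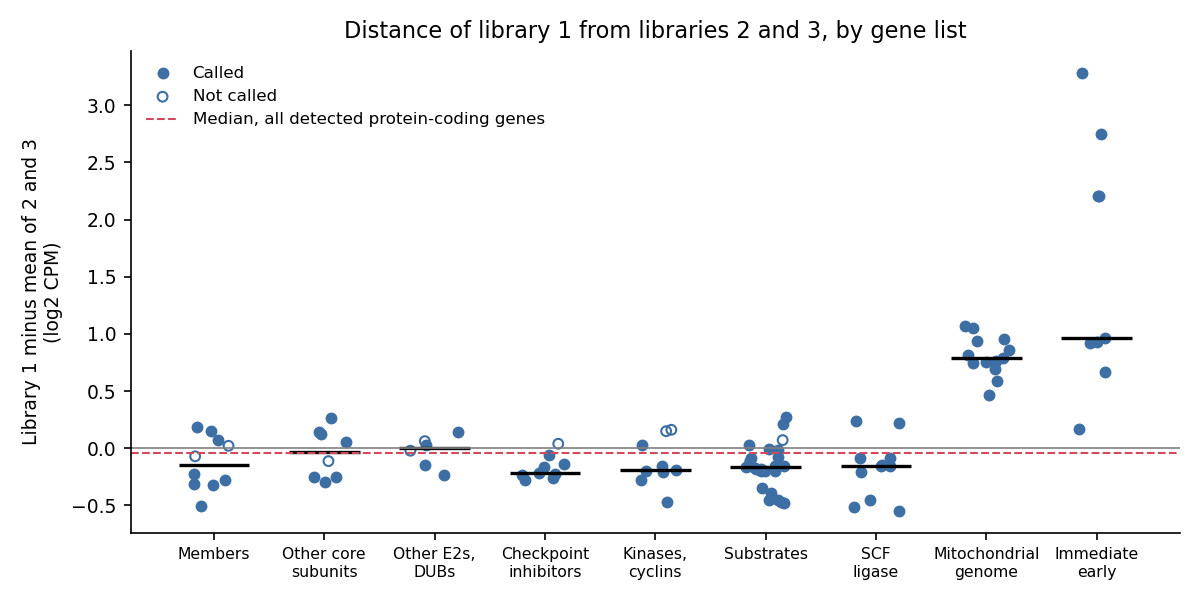
Difference of library 1 from the mean of libraries 2 and 3 in log2 CPM (vertical axis) for each gene tested, by list (horizontal axis), with filled points for called genes, open points for the rest and a black line for the median. The members and the checkpoint, kinase, substrate and SCF lists have medians from -0.15 to -0.22, while mitochondrial and immediate early genes have medians of 0.79 and 0.96.

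Among the members, the difference of library 1 was lower where the GC content of the transcript was higher. Over 11500 detected protein-coding genes the Spearman correlation between GC content and the difference of library 1 was -0.300, and over the 10 members it was -0.891. All points share the same 3 libraries. For the other lists only medians were compared, and a correlation within each list was not tested. The other APC/C subunits (median GC content 44.88%) and the other ubiquitin-conjugating enzymes and deubiquitinases (39.99%) had median differences of -0.031 and 0.001. Detected protein-coding genes of like GC content had medians of -0.0077 and 0.0374. The checkpoint, kinase and substrate lists had median GC contents of 42.5%, 43.2% and 44.4%, and detected protein-coding genes 48.1%. The median differences of these 3 lists were -0.22, -0.19 and -0.17. The immediate early genes, at a median GC content of 55.4%, had a median difference of 0.96. The 5 called members lowest in library 1 had GC contents of 64.0% (FZR1), 63.3% (ANAPC2), 57.9% (CDC20), 57.7% (ANAPC11) and 50% (UBE2C). The 3 called members highest there had 36.6% (CDC27), 39.0% (FBXO5) and 43.2% (CDC23). Of the members not called, ANAPC1 (45.3%) was lowest and CDC16 (45.6%) highest in library 1. Relative to the median of genes of like GC content, the difference of library 1 was -0.38 for CDC20, -0.19 for UBE2C, -0.15 for ANAPC11, -0.14 for ANAPC2 and -0.12 for FZR1. It was 0.18 for CDC23, 0.09 for FBXO5 and -0.04 for CDC27. The 5 called members lowest in library 1, CDC23 and FBXO5 kept their direction on this scale, and CDC27 did not. The part of GC content, or of the mitochondrial and immediate early genes, in these differences was not tested.

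**Figure D5:**
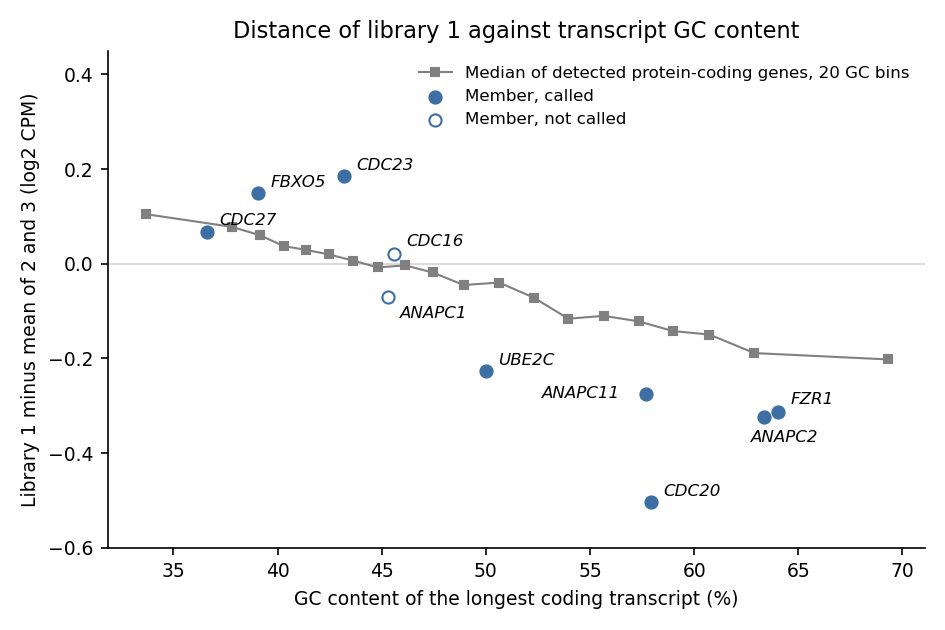
Difference of library 1 from the mean of libraries 2 and 3 in log2 CPM (vertical axis) against GC content of the longest coding transcript in percent (horizontal axis), for the 10 members (points, open where not called) and as medians of detected protein-coding genes in 20 GC bins (grey squares). CDC20 lies farthest below the grey line, and CDC23 and FBXO5 lie above it.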

How the data were processed

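RNA-seq counts of 3 control libraries were used. The authors deposited whole-number read counts per gene, not normalised. Tools listed, without roles or settings, per the submitters' processing notes are featureCounts 1.6.2, STAR 2.5.2a and cutadapt 1.16, with the build hg38. The sources used here do not give the annotation, strand setting or handling of reads with several alignments. Another 6 columns of per-sample counts matched no label and were not used.

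All 58735 identifiers matched GENCODE 29, which gave positions, exon lengths and transcript GC content. TMM factors came from edgeR 4.0.16 in R 4.3.3, alternative size factors from DESeq2 1.42.0, and tests from SciPy 1.17.1. With 1 group, edgeR's quasi-likelihood test had no contrast, so spread was tested by chi-square (2 degrees of freedom, mean count of at least 10, Benjamini-Hochberg over all genes), and this was checked on simulated counts. Pair ratios used a pseudocount of 0.5 count and exact sign-flip tests over 10 pairs, each with an adjusted p of 0.25. A count of 0 allows up to 3 counts, 0.0494 to 0.0641 CPM, for counting error only.

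The members and lists were chosen with earlier results of these data known. The genes named were the members, the pair genes, the 3 genes nearest to CDC20 and, per list, the highest, lowest detected, most variable called and undetected genes. BEST1, MITF, OTX2, KRT18, ANAPC5, PLK1, MAD1L1, CENPF, ANAPC4, UBE2R2, KIF20A, MFSD12, NPB and CDC20P1 were named after their values were seen, and the GC comparison and the word search were also added then.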

Additional observations from a re-analysis of the deposited data

How the results depend on the processing

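The members called numbered 8 with DESeq2 size factors, against 68.6% of genes tested, and 8 without the filter on counts, against 48.0%. That last share is over 26511 genes, which include those with a mean count under 10. Called members numbered 9 on total counts, against 69.3%, and 3 with an extra coefficient of variation of 0.05, against 32.6% (5307 genes). Leaving out library 1 gave 3 members, against 28.1% of genes (4581), the lowest of both. Leaving out library 2 gave 7, against 56.8% (9159), and leaving out library 3 gave 8, against 60.7% (10016). All 10 members were detected under every setting tried. Pair ratios kept their direction with each library left out and with a pseudocount of 5. Length moved most of them. With the longest coding transcript the log2 ratio was 0.48 for UBE2C to UBE2S, 0.26 for FBXO5 to FZR1 (reversed), -0.33 for ANAPC2 to ANAPC11 (reversed), 1.65 for CDC16 to CDC23, 0.94 for CDC27 to CDC23, -0.54 for ANAPC2 to CUL1, -0.31 for ANAPC11 to RBX1 and 3.20 for FBXO5 to FBXO43. Without length it was 0.21 for CDC20 to FZR1, -0.998 for UBE2C to UBE2S (reversed), -0.97 for FBXO5 to FZR1, -0.32 for CDC20 to MAD2L1 (reversed), 0.62 for ANAPC2 to ANAPC11, 1.14 for CDC16 to CDC23, 1.82 for CDC27 to CDC23, -0.76 for ANAPC2 to CUL1 and -0.11 for ANAPC11 to RBX1. Relative to genes of like GC content, an alternative added after seeing the data, library 1 lay at -0.037 for CDC27 (reversed, the cause was not tested). No paired analysis was possible because the labels give 1 group.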
